A study of Mus musculus with 4 samples.

Results

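Cytosolic ribosomal protein genes were examined in hippocampal RNA of wild-type (WT) mice and of mice with an Lsd1 knock-in (KI). Members were the protein-coding genes whose symbol begins with Rpl or Rps followed by a digit or a letter, without the Rps6k kinases, Rps19bp1 and Rpl7l1, matched by Ensembl identifier. The rule gave 90 genes, 56 of the large and 34 of the small subunit, and 88 of them were listed in at least 1 sample among 26328 listed genes. Rpl10l and Rpl36-ps4 were listed in none. A filter on low values, at least 0.5 RPKM in at least 2 of the 4 samples, left 84 members (50 large, 34 small) among 18436 genes tested. RPKM is the number of reads on a gene divided by its exon length and by the depth of the library. The members that did not pass it, besides the 2 unlisted genes, were Rpl3l, Rpl39l, Rpl10-ps3 and Rpl9-ps1.

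KI mice were Lsd1 SA/SA, homozygous for an alanine in place of the LSD1 serine that protein kinase Cα phosphorylates, and WT mice were littermates of the C57BL/6 strain. Poly(A) RNA of the hippocampus of males was sequenced in 2 WT and 2 KI samples. An age of 8 to 15 weeks is given for the mice of the behavioural tests, and the age of the mice that gave RNA is not given in the sources used here. A knock-in allele is carried by all cells of the animal, not by a chosen cell type. No label says whether a sample came from 1 animal or from pooled animals, so the p-values measure the spread between these samples, which may be technical.

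The cytosolic ribosome is built from ribosomal RNAs and one copy of nearly every ribosomal protein, while the stalk proteins P1 and P2 (Rplp1, Rplp2) sit as dimers on P0 (Rplp0) and recruit translation factors. The mRNAs of these proteins begin with a cytidine followed by a run of pyrimidines, the terminal oligopyrimidine or TOP motif, and through it their translation, rather than their abundance, responds to mTORC1 signalling. In neurons they belong to the abundant mRNAs and some are carried into dendrites and axons. Ribosomal protein genes have given rise to many processed copies in mammalian genomes, most of them pseudogenes and a few annotated as protein-coding.

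The copies are shown first because they set what a value of a member stands for. Rps27 (chromosome 3, 90212522 to 90213651, minus strand, GRCm38) encodes protein S27 of the small subunit. Rps27rt (chromosome 9, 114982366 to 114982739, minus strand) is its retrogene copy, and Rps27l (chromosome 9, 66946086 to 66949516, plus strand) is a diverged paralog. Coding sequences of 252 bases were compared for all 3, and GENCODE M21 also holds one of 315 bases for Rps27l. Their first 90 bases follow 5′ to 3′, with capitals where a base differs from Rps27.
Rps27: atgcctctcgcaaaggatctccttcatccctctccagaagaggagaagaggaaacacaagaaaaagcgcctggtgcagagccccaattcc
Rps27rt: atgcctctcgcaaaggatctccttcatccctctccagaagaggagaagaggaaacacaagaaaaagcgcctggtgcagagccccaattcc
Rps27l: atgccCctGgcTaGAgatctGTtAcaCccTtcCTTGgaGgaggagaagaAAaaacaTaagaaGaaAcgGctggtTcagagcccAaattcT
Over the whole coding sequence Rps27rt differed from Rps27 at 0 positions and Rps27l at 60, so bases read within it have the same letters for Rps27 and Rps27rt. The library inserts of the paper were longer than this coding sequence, so a typical read pair reaches beyond it.

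Identity between other members and their relatives covered a wide range. The coding sequences compared for Rps12 and Rps12-ps3 were identical over 396 bases, and those of Rpl9 and Rpl9-ps6 differed at 1 of 576 positions. Rps12 also has a coding sequence of 444 bases. Rpl36a matched Rpl36a-ps1 at 97.8% and Rpl36al at 87.74% of positions. Among the paralogs, Rpl39l matched Rpl39 at 84.97%, Rpl10l matched Rpl10 at 84.74%, Rpl3l matched Rpl3 at 73.2% and Rpl22l1 matched Rpl22 at 67.53%. Rpl10-ps3, Rpl9-ps1 and Rpl36-ps4 were not compared in this way.

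For the letters at transcription starts, the RefSeq promoter table (GRCm38.p6) held 64 of the 90 members, with 76 starts. Windows of 2 of the 8 members with the highest and 2 of the 8 with the lowest KI against WT difference, picked after their values were seen, show which letters such genes start with. They hold 30 bases before the listed start and 20 from it, 5′ to 3′ on the gene's strand, with the pyrimidine run that begins at the start in capitals, at GRCm38.p6 positions.
Rps27rt (chr9:114982720-114982769, minus): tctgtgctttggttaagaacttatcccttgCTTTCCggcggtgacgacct
Rpl31 (chr1:39367821-39367870, plus): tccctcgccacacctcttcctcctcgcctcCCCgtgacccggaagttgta
Rps21 (chr2:180257349-180257398, plus): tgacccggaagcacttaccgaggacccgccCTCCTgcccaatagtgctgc
Rpl7a (chr2:26910777-26910826, plus): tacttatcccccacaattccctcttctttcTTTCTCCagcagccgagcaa
A start at C followed by at least 4 further pyrimidines was found at the listed start of Rps27rt and at the first of 2 listed starts of Rps21, and not at those of Rpl31 and Rpl7a, where pyrimidines also lie before the listed start. The listed starts of Rpl24 and Rpl34, also among the 8 highest, and of Rpl5, also among the 8 lowest, lacked it as well. A relation between such starts and the KI against WT differences was not tested. Any such start was listed for 14 of 64 members (21.9%), against 3.01% of the 27025 genes of the table. A run of at least 8 pyrimidines within 30 bases of the start was found in 54.7% of members and 25.8% of all genes.

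In the 250 bases before the start, on either strand, CCGGAAG, the core that ETS-family factors bind, was present in 29.7% of members against 7.83% of all genes. GGGCGG, the GC box, was present in 50% against 35.4%, and TATAAA in 6.25% against 14.3%. CACGTG, the E-box of MYC and related factors, was present in 7.81% of members and 6.86% of all genes. None of these motifs contains another, and a match is a description of letters only.

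The 4 samples held about 8830000 (WT 2) to 14950000 (KI 2) mapped reads, as derived from the steps between low RPKM values, so WT 2 was the shallowest. Kdm1a, which encodes LSD1, was at 11.6 and 11.2 RPKM in WT and 10.97 and 11.2 RPKM in KI, and since the knock-in changes 1 residue this level does not check the genotype. Summed RPKM of 8 hippocampal neuron markers was 616 to 622 in all samples. Of these the dentate granule cell markers Prox1 and C1ql2 had KI values below WT, with log2 fold changes of -0.52 and -0.39 (adjusted p of 0.405 and 0.336, limma). Of the 4 choroid plexus markers Ttr and Kl passed the filter, and their sum was 13.01 and 19.0 RPKM in WT and 58.3 and 15.6 RPKM in KI. In this sum KI 1 stood apart through Ttr, at 51.3 RPKM. Kl was at 4.87 and 5.14 RPKM in WT and 7.05 and 6.72 RPKM in KI, higher in both KI samples. Folr1 and Kcne2 did not pass. All 4 neocortex markers had positive differences, with sums of 17.3 and 18.4 RPKM in WT and 21.8 and 20.97 RPKM in KI. The 4 striatum markers summed to 18.5 and 17.5 RPKM in WT and 21.3 and 21.2 RPKM in KI. Of these 3 had positive differences, while Rgs9 was at 2.38 and 2.59 RPKM in WT and 2.29 and 2.3 RPKM in KI. The 4 oligodendrocyte markers summed to 607 and 706 RPKM in WT and 764 and 581 RPKM in KI, where the groups overlapped. Their part in the results on ribosomal protein genes was not tested.

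The level of the members spanned more than 3 orders of magnitude. The mean RPKM over the 4 samples ran from 0.032 (Rpl9-ps1) to 307 (Rplp1), with a median of 16.2 for the 88 listed members and 5.85 for all genes tested. There were 6 members above 100 RPKM, 48 from 10 to 100, 30 from 1 to 10 and 4 at 1 RPKM or below. RPKM is scaled to exon length, and a comparison between genes is limited because read pairs placed at several sites were not counted. A further limit is that the exons of all annotated transcripts of a gene can be far longer than its coding sequence. For Rpl30 the exons cover 3020 bases and the longest coding sequence 345.

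**Figure D1:**
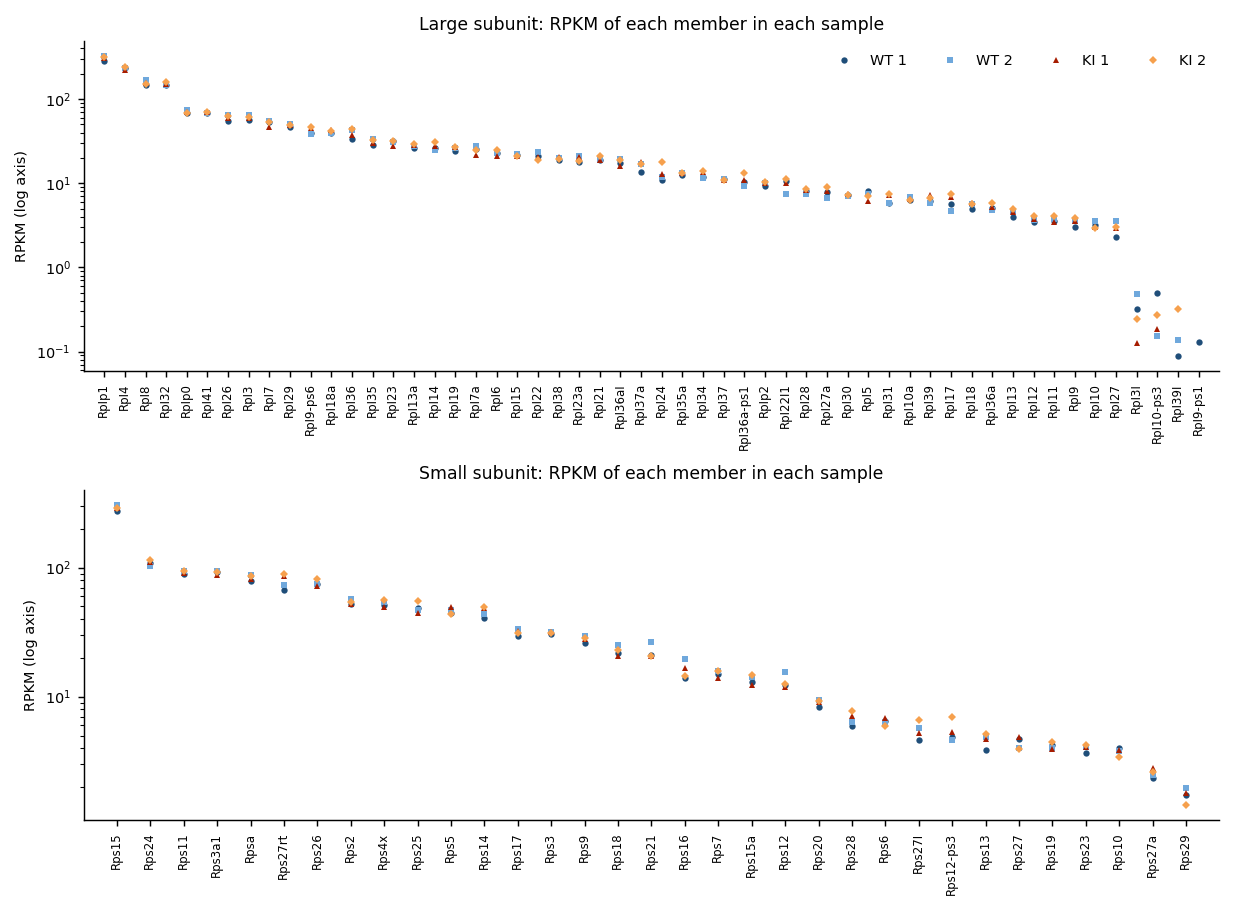
RPKM (log axis) of 87 of the 88 listed ribosomal protein genes in each of the 4 samples, ordered by the mean, for the large subunit (top) and the small subunit (bottom). Each symbol is 1 sample, values of 0 are not drawn, and the 4 symbols of most genes lie close together compared with the range from 0.032 to 307 RPKM between genes.

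The highest member was Rplp1, a stalk protein gene, at 281 and 327 RPKM in WT and 305 and 316 RPKM in KI. Rps15, whose protein sits in the head of the small subunit, was at 276 and 304 RPKM in WT and 289 and 291 RPKM in KI. In both genes the WT values enclosed the KI values. Rpl4, whose protein lines part of the exit tunnel, was at 235 and 236 RPKM in WT and 219 and 241 RPKM in KI. Rpl8 was at 148 and 169 RPKM in WT and 155 and 153 RPKM in KI. For these 4 genes the groups overlapped. Rpl32 was at 147 and 148 RPKM in WT and 152 and 159 RPKM in KI, and Rps24, a small subunit gene mutated in some cases of Diamond-Blackfan anaemia, was at 108 and 103 RPKM in WT and 110 and 114 RPKM in KI. In Rpl32 and Rps24 KI was higher than WT with no overlap, with log2 fold changes of 0.07 ± 0.05 and 0.09 ± 0.05 (SE) and adjusted p of 0.661 and 0.63 from limma.

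Among the stalk genes, Rplp1 was the highest and Rplp2 the lowest. Rplp0 was at 69.0 and 75.2 RPKM in WT and 70.1 and 68.4 RPKM in KI. Rplp2 was at 9.25 and 9.95 RPKM in WT and 10.1 and 10.4 RPKM in KI, so that the rows of Rplp1 and Rplp2, whose proteins pair in the ribosome, lay far apart. In GENCODE the exons of Rplp1 and Rplp2 cover 499 and 2072 bases, for longest coding sequences of 342 and 345 bases. A row sharing Rplp2 stretches was at 18.6 RPKM, above Rplp2 itself. The gap in RPKM therefore does not measure a gap in mRNA copies. The log2 fold changes of the stalk genes, KI over WT, were -0.06 ± 0.06 for Rplp0, 0.03 ± 0.09 for Rplp1 and 0.09 ± 0.07 for Rplp2 (SE, n = 2 each).

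The lowest members were retrocopies and paralogs with a restricted known range. Rpl9-ps1 was listed in WT 1 alone, at 0.129 RPKM or 1 read. Rpl39l, the testis-enriched paralog of Rpl39, had 1, 1, 0 and 4 reads in WT 1, WT 2, KI 1 and KI 2. Rpl3l, which replaces Rpl3 in heart and skeletal muscle, had 7, 7, 3 and 6 reads, and its parent Rpl3 was at 57.0 to 65.5 RPKM. Rpl10-ps3 was at 0.502 and 0.153 RPKM in WT and 0.187 and 0.27 RPKM in KI. No fold change is given for these 4 genes, and Rpl10l, a testis paralog of Rpl10, was listed in no sample. The next lowest genes were Rps29 at 1.45 to 1.96 RPKM, with 12 to 18 reads a sample, and Rps27a, which encodes S27a fused to ubiquitin, at 2.34 to 2.79 RPKM, with 43 to 79 reads.

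The members listed as paralogs that passed the filter lay from 5.53 RPKM (Rps27l) to 91.7 RPKM (Rps3a1, itself the main S3A gene). Rpl22l1 was at 10.5 and 7.41 RPKM in WT and 10.1 and 11.1 RPKM in KI, and its parent Rpl22 at 21.1 and 23.4 RPKM in WT and 20.3 and 19.0 RPKM in KI. Rpl22 protein is known to repress Rpl22l1, a relation that was not tested here. The log2 fold changes of Rpl22 and Rpl22l1 were -0.17 ± 0.07 and 0.23 ± 0.17, of opposite sign (SE, adjusted p of 0.546 and 0.689, limma). The KI values of Rpl22 lay below its WT values, and those of Rpl22l1 overlapped with WT. The value of Rpl22l1 rests on WT 2, since it was 0.0074 without that sample and 0.46 without WT 1, while that of Rpl22 was -0.24 to -0.10 with 1 sample left out. Rps27l, a p53 target, was at 4.66 and 5.69 RPKM in WT and 5.2 and 6.56 RPKM in KI. Rpl36al was at 17.4 and 19.4 RPKM in WT and 15.8 and 18.7 RPKM in KI. In Rps27l and Rpl36al the groups overlapped. Rps3a1, the main S3A gene, was at 93.1 and 93.7 RPKM in WT and 87.2 and 92.8 RPKM in KI, a log2 fold change of -0.05 ± 0.05.

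The authors kept uniquely placed read pairs, and 78 of the 88 listed members shared at least one 100-base stretch of coding sequence with another annotated gene. The median member had 70.4% of its stretches in another gene. The genes sharing stretches with any of the 90 members numbered 490, of which 454 were annotated as pseudogenes and 348 were listed. In 43 of the 88 members the member's own row was below the highest row that shared its sequence. The median level was 31.2 RPKM for the 15 members with at most 20% of stretches shared, 34.4 RPKM for the 16 with 20 to 50% and 13.1 RPKM for the 57 with more. Across these 88 genes, Spearman's rho between the share and the mean RPKM was -0.385 and Pearson's r with log2 RPKM was -0.194, as a description, since the genes share libraries and copies share sequence.

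**Figure D2:**
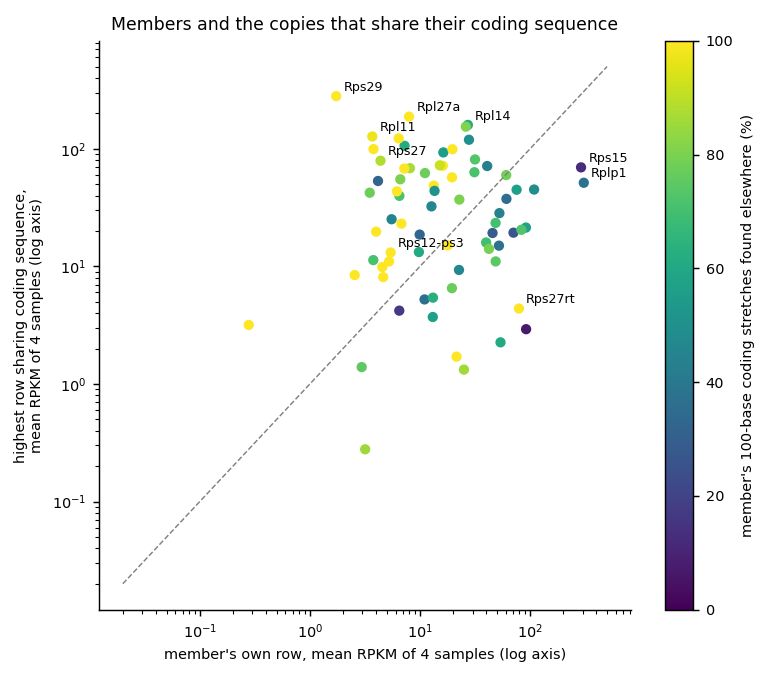
Mean RPKM of a member's own row (x, log axis) against the mean RPKM of the highest other row that shares a 100-base coding stretch with it (y, log axis), coloured by the percentage of the member's stretches found elsewhere. Points above the dashed line of equality are members lower than a copy, such as Rps29 at 1.73 RPKM with a copy at 280 RPKM, while Rplp1, Rps15 and Rps27rt lie below it.

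Rps29 was farthest below a copy. Its row was at 1.72 and 1.96 RPKM in WT and 1.81 and 1.45 RPKM in KI, while Gm14303, annotated as a processed pseudogene and holding all of the Rps29 stretches, was at 239 and 286 RPKM in WT and 296 and 300.3 RPKM in KI. Rps29 had a log2 fold change of -0.12 ± 0.12, and the summed row of both was at 240 and 288 RPKM in WT and 298 and 302 RPKM in KI, a log2 difference of 0.19. The sign of the difference between KI and WT thus changed when the copy was added. Rps6, Rpl27a and Rpl14 were chosen after their values were seen. Rps6, whose protein is phosphorylated by S6 kinase, was at 5.95 to 6.84 RPKM, and its copy Rps6-ps4 at 118 to 129 RPKM. Rpl27a was at 6.74 to 9.04 RPKM and Gm7536 at 174 to 194 RPKM. Rpl14 was at 24.6 to 30.5 RPKM and Rpl14-ps1 at 153 to 167 RPKM. Values of these genes are therefore uncertain as levels of 1 locus.

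Rps27 was also far below its copy, while Rps12 was above Rps12-ps3. The Rps27 row was at 4.68 and 4.0 RPKM in WT and 4.91 and 3.93 RPKM in KI. The row of its retrogene copy Rps27rt was at 67.1 and 73.7 RPKM in WT and 86.5 and 89.4 RPKM in KI, with 94.8% of the summed RPKM of the family. The Rps12 row was at 12.4 and 15.5 RPKM in WT and 12.0 and 12.6 RPKM in KI, and Rps12-ps3 was at 4.83 and 4.59 RPKM in WT and 5.35 and 6.91 RPKM in KI. With the same coding sequence, their log2 fold changes were -0.16 ± 0.11 and 0.31 ± 0.13 (SE), and the sum over Rps12 and all rows sharing its stretches differed by 0.05. Rps12 was at -0.0068 without WT 2 and -0.31 without WT 1, and Rps12-ps3 at 0.15 without KI 2 and 0.47 without KI 1. The opposite signs of the 2 rows were not tested against each other.

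Each member with the rows that shared its stretches was also summed, as a step added after the values were seen. The own row held a median of 38.5% of the sum over the 84 tested members, under 20% in 28 of them and over 80% in 18. The 90th percentile of the own rows was 20.3 times the 10th, and that of the sums 9.22 times. The sums had a median of 74.2 RPKM, with a range of 4.1 to 375 RPKM. A copy can share stretches with several members, and rows of unequal exon length were added, so the sums are upper views of a family and not levels of a gene.

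Summed over all members, ribosomal protein genes took 0.865% and 0.931% of all RPKM in WT and 0.885% and 0.92% in KI. The KI values lay between the WT values. The group means were 0.898 ± 0.047% in WT and 0.903 ± 0.025% in KI (SD, n = 2 each). The large subunit took 0.52% in WT and 0.521% in KI, and the small subunit 0.378% and 0.381%. Pseudogenes with a ribosomal protein symbol, of which 201 were listed, took 0.454% and 0.482% in WT and 0.484% and 0.488% in KI.

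As a group the members differed more between the 2 WT samples than between the genotypes. Against each gene's mean over the 4 samples on the log2 scale, the median member was at -0.061 in WT 1, 0.021 in WT 2, 0.0052 in KI 1 and 0.054 in KI 2. The highest value of a member fell in KI 2 for 40 of 84 genes and in WT 2 for 29, and the lowest in WT 1 for 41. The large and the small subunit gave nearly equal medians in WT 1, -0.061 in both. Over all genes tested the medians were -0.0094 in WT 1, -0.0013 in WT 2, 0.0035 in KI 1 and 0.013 in KI 2. Among the ribosomal protein genes WT 2, the shallowest sample, lay between KI 1 and KI 2.

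**Figure D3:**
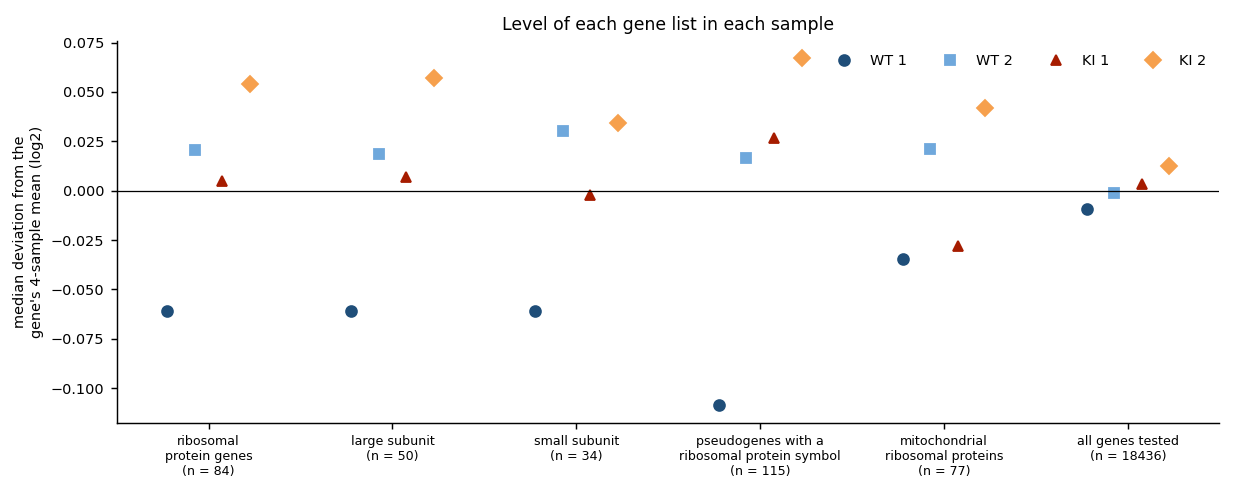
Median log2 deviation of the genes of each list from their own mean over the 4 samples (y), for each sample (symbols), with the number of tested genes under each list. WT 1 is lowest and KI 2 highest for the ribosomal protein genes and for both subunits, and WT 2 lies above KI 1.

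The comparison of KI with WT asked whether the mutation goes with other mRNA levels in the hippocampus. No ribosomal protein gene passed the adjusted threshold between KI and WT. With limma on log2(RPKM + 1), a gene was called at an adjusted p under 0.1 and a difference of at least 1.2-fold, and 0 of 84 members were called. Over all 18436 genes 0 (percent called 0.0) passed as well, so the count does not set the members apart from other genes. With edgeR the paper reports differentially expressed genes in both directions from these samples, and that test was not repeated here. At an unadjusted p under 0.05 there were 9 of 84 members (10.7%), against 9.62% of all genes. All 9 were higher in KI, where the share of all genes was 6.3%, and 0 were lower, where it was 3.33%. The 9 were Rps27rt, Rpl31, Rpl9-ps6, Rpl34, Rps14, Rpl17, Rps28, Rpl14 and Rpl39, of which the last 2, with Rpl9-ps6, Rps14 and Rps28, were named after their values were seen. The smallest adjusted p of a member was 0.354. Since the tissue was sequenced in bulk, fewer cells of a type and less RNA per cell cannot be told apart in any of these values.

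The log2 fold changes of the members were small and leaned to the positive side. They ran from -0.19 to 0.41 with a median of 0.033, beside 0.013 over all genes tested, and 57 of 84 (67.9%) were positive, beside 54.4% of all genes. Without WT 1 the median was -0.00071 and without WT 2 it was 0.086, so 1 library decides its sign. In 48 members the size was under 0.1. Only 6 members (7.14%) reached 1.2-fold in these samples, against 13.1% of all genes, namely Rpl17, Rpl24, Rps27rt, Rps12-ps3, Rpl31 and Rpl36a-ps1. The 95% interval lay within 1.2-fold either way in 35 members and reached past it in 49, for which a difference of that size is within the error. The SE of a member was 0.042 to 0.18 on the log2 scale, with a median of 0.082, beside 0.095 over all genes. Neither this comparison of SE nor that of the 1.2-fold share was matched for level. The SD over the 4 samples, as a percentage of the mean, had a median of 7.21% for members and 8.64% for all genes. For genes between the members' lower and upper quartile of level, 6.59 to 45.7 RPKM, that median was 5.87%.

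**Figure D4:**
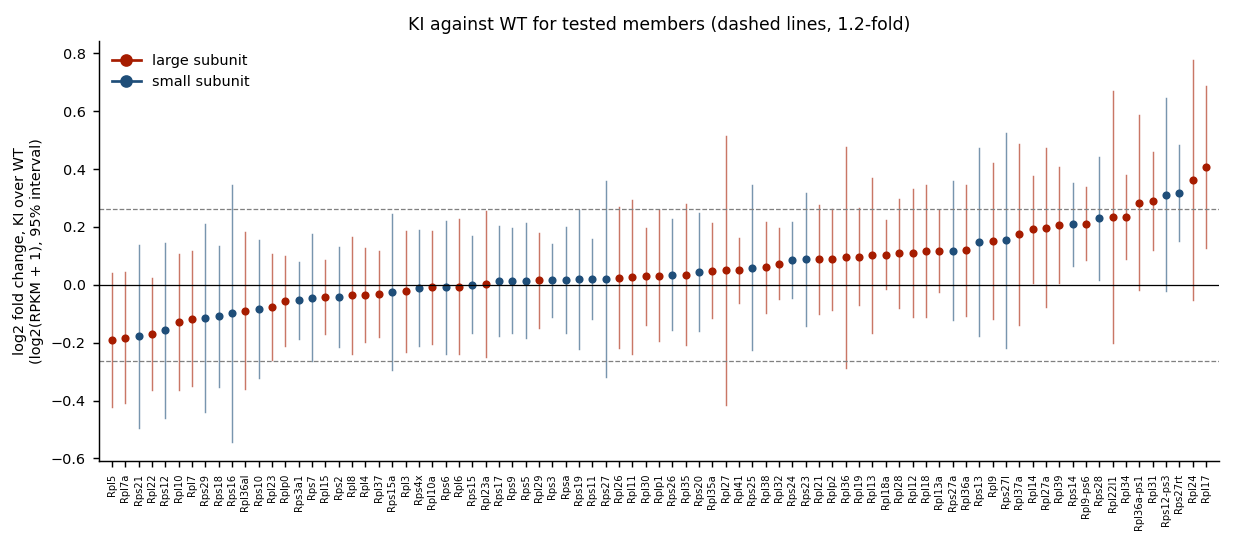
Log2 fold change of KI over WT on the log2(RPKM + 1) scale (y) for 83 of the 84 tested members, with 95% intervals from limma, ordered by value and coloured by subunit. The points run from -0.19 (Rpl5) to 0.41 (Rpl17), and 6 lie above the upper dashed line of 1.2-fold while 0 lie below the lower one.

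In 30 of 84 members (35.7%) the lower KI value was above the higher WT value, beside 24.0% of all genes tested. In 8 members (9.52%) KI was lower in the same sense, beside 18.1% of all genes. In the other 46 the groups overlapped. The balance of above and below depended on WT 1, since without it 31 members were above and 30 below, and without WT 2 it was 54 and 10. A lone WT sample makes overlap rarer, so the totals of these counts cannot be set against 30 and 8. Shares over all genes were not counted for them. With 2 samples against 2, an exact permutation test of a single gene cannot go below 0.33. The large subunit had 22 of 50 members above and 6 below, with a median log2 fold change of 0.055. The small subunit had 8 of 34 above and 2 below, with a median of 0.016. The difference between the subunits was not tested.

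The member with the highest log2 fold change was Rpl17, a large subunit gene near the exit of the tunnel, at 5.67 and 4.68 RPKM in WT and 6.91 and 7.42 RPKM in KI. The groups did not overlap, with a log2 fold change of 0.41 ± 0.11 (SE, n = 2 each) and an adjusted p of 0.435 from limma. All Rpl17 stretches were shared with other genes, of which Rpl17-ps10 was at 40.6 to 46.3 RPKM, and the summed row differed by 0.08. Rpl24, whose protein takes part in joining the subunits, was at 11.1 and 11.9 RPKM in WT and 12.8 and 17.7 RPKM in KI. KI 2 alone was far above the WT values of Rpl24, and the log2 fold change of 0.36 ± 0.16 was 0.14 without KI 2.

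Rps27rt had the smallest adjusted p of the members, 0.354 from limma, at a log2 fold change of 0.32 ± 0.06. Its KI values of 86.5 and 89.4 RPKM lay above its WT values of 67.1 and 73.7 RPKM, and without any single sample the log2 fold change was 0.25 to 0.38. Rps27, with the same coding sequence, had a log2 fold change of 0.02 ± 0.13. Rpl31, a large subunit gene at the tunnel exit, was at 5.84 and 5.89 RPKM in WT and 7.34 and 7.43 RPKM in KI. The Rpl31 replicates lay close together in both groups, with a log2 fold change of 0.29 ± 0.06 and an adjusted p of 0.397 from limma. Its copy Rpl31-ps8 was at 51.9 and 55.6 RPKM in WT and 59.8 and 52.9 RPKM in KI, where the groups overlapped, and the summed row differed by 0.11.

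Rpl34, another large subunit gene, was at 11.8 and 11.4 RPKM in WT and 13.7 and 13.9 RPKM in KI, a log2 fold change of 0.23 ± 0.05. In Rpl34 the KI values lay above the WT values. Its copy Rpl34-ps1 was at 30.1 and 36.7 RPKM in WT and 30.4 and 32.3 RPKM in KI. The summed row of Rpl34 differed by 0.05, and in it the groups overlapped. The retrocopy Rpl36a-ps1 was at 10.5 and 9.18 RPKM in WT and 11.05 and 13.3 RPKM in KI, a log2 fold change of 0.28 ± 0.11. With 1 sample left out, Rpl36a-ps1 ran from 0.16 (without KI 2) to 0.41 (without KI 1). Its parent Rpl36a had a log2 fold change of 0.12 ± 0.09.

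The annotated coding retrocopies had higher differences than the median member. Of the 7 members with a -ps or rt symbol, 4 passed the filter, Rps27rt, Rps12-ps3, Rpl36a-ps1 and Rpl9-ps6. All 4 were higher in KI without overlap, as were 24.0% of all genes tested. Their log2 fold changes were 0.32, 0.31, 0.28 and 0.21, beside a median of 0.028 for the 80 members with other symbols. This grouping was made after the values were seen and was not tested. The 115 tested pseudogenes with a ribosomal protein symbol had a median of 0.098, with 32 (27.8%) above and 13 (11.3%) below. Over all genes tested these shares were 24.0% and 18.1%. WT 1 was the lowest sample of the pseudogenes too, at -0.11. By the share of coding stretches found elsewhere, the median log2 fold change of the members was 0.015 for the 12 with at most 20%, 0.059 for the 16 with 20 to 50% and 0.04 for the 56 with more.

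At the low end stood Rpl5, whose protein binds 5S rRNA together with Rpl11 and can hold MDM2. Rpl5 was at 7.99 and 7.48 RPKM in WT and 6.23 and 7.1 RPKM in KI, with both KI values below both WT values and a log2 fold change of -0.19 ± 0.09 (SE, adjusted p of 0.558, limma). Its copy Gm15500, which holds all Rpl5 stretches, was at 63.9 to 70.2 RPKM, and the summed row differed by -0.07. Rpl7a, which binds rRNA in the large subunit, was at 25.7 and 27.7 RPKM in WT and 21.8 and 25.1 RPKM in KI, a log2 fold change of -0.18 ± 0.09. In Rpl7a the KI values lay below the WT values, and KI 1 was the lowest.

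Rps21, a small subunit gene with 0 shared stretches, was at 20.9 and 26.6 RPKM in WT and 20.8 and 20.6 RPKM in KI. WT 2 alone stood apart, so that the log2 fold change of -0.18 ± 0.12 was -0.012 without it. Rpl10, an X-linked gene whose protein is added late to the large subunit, was at 3.2 and 3.53 RPKM in WT and 3.01 and 2.96 RPKM in KI, a log2 fold change of -0.13 ± 0.09. Rpl7 was at 53.0 and 55.5 RPKM in WT and 46.1 and 54.0 RPKM in KI, where the groups overlapped, a log2 fold change of -0.12 ± 0.09 that was -0.0046 without KI 1 and -0.23 without KI 2.

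**Figure D5:**
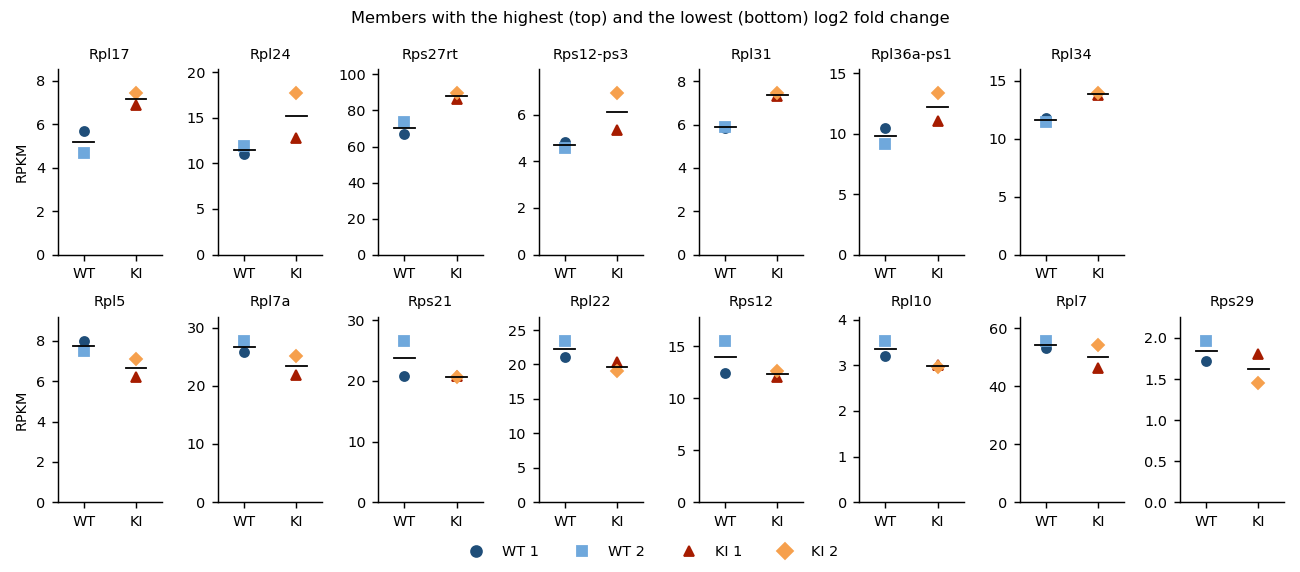
RPKM (y, from 0) of 7 of the 8 members with the highest (top row) and the 8 with the lowest (bottom row) log2 fold change, with 1 symbol a sample and a line at each group mean. Both KI values exceed both WT values in 7 of 7 top-row genes and lie below them in 5 of 8 bottom-row genes. The genes were picked by these same values, so the counts follow largely from the pick. Over all genes tested the shares are 24.0% above and 18.1% below. In Rpl24, Rps12-ps3, Rps21 and Rps12 a single sample stands away from the other 3.

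Rpl11 was the member nearest to Kdm1a (chromosome 4, 136028265 to 136053428, with gene midpoints 0.536 Mb apart). It was at 3.54 and 3.74 RPKM in WT and 3.43 and 4.04 RPKM in KI, the groups overlapped, and the log2 fold change was 0.03 ± 0.10. Its copy Gm10288 was at 124 to 130.1 RPKM.

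The other parts of the translation machinery were described by lists. Of 20 elongation factors and other TOP mRNAs 0 were called, with a median log2 fold change of -0.039, 2 genes (10%) with both KI values above WT and 6 (30%) with both below, beside 24.0% and 18.1% of all genes. Pabpc1, the poly(A)-binding protein and a TOP mRNA, was at 24.98 and 25.5 RPKM in WT and 21.7 and 23.1 RPKM in KI, a log2 fold change of -0.17 ± 0.06 (adjusted p of 0.49, limma). Gas5, a TOP host gene of small nucleolar RNAs, had -0.14 ± 0.06, while Tpt1 and Eef1d had 0.10 ± 0.08 and 0.10 ± 0.07. Of 24 initiation factors 0 were called, with a median of -0.032, 3 (12.5%) above and 6 (25%) below. The lowest were Eif3c (-0.14 ± 0.07) and Eif3m (-0.11 ± 0.09) and the highest Eif3i (0.11 ± 0.06) and Eif4a1 (0.06 ± 0.07), all with adjusted p over 0.5.

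Of 20 genes of mTORC1 and TOP mRNA control 0 were called, with a median of -0.029. In 4 (20%) KI lay above and in 9 (45%) below, beside 24.0% and 18.1% of all genes. A difference from all genes was not tested. Tsc2, part of the complex that restrains mTORC1, was at 34.4 and 35.3 RPKM in WT and 30.6 and 31.3 RPKM in KI, a log2 fold change of -0.16 ± 0.05 (adjusted p of 0.468, limma). Eef2k, the kinase that inhibits elongation factor 2, was at 7.2 and 7.38 RPKM in WT and 6.26 and 6.38 RPKM in KI, a log2 fold change of -0.18 ± 0.06. Eif4ebp1, an mTORC1 substrate that holds eIF4E, was at 0.836 and 1.62 RPKM in WT and 1.84 and 1.84 RPKM in KI, a log2 fold change of 0.37 ± 0.20 in which WT 1 stood apart. Deptor, an mTOR inhibitor, had 0.26 ± 0.11.

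Of 36 ribosome biogenesis genes 0 were called, with a median of 0.017. In 6 (16.7%) KI lay above and in 6 (16.7%) below, beside 24.0% and 18.1% of all genes. Fbl, the rRNA methyltransferase of the nucleolus, was at 6.88 and 9.48 RPKM in WT and 6.18 and 6.93 RPKM in KI, a log2 fold change of -0.27 ± 0.16. Polr1a, the largest subunit of RNA polymerase I, was at 8.91 and 8.65 RPKM in WT and 7.27 and 7.69 RPKM in KI, a log2 fold change of -0.21 ± 0.07 (adjusted p of 0.49, limma). Polr1c and Pes1 were at the other end, with 0.14 ± 0.07 each. Rack1 and Fau, ribosomal proteins whose symbols the rule does not reach, had log2 fold changes of 0.06 ± 0.05 and -0.02 ± 0.08.

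Mitochondrial ribosomal proteins (symbols Mrpl or Mrps with a digit) served as a ribosome of another compartment. Of 77 tested 0 were called, with a median of 0.0099, 18 (23.4%, beside 24.0% of all genes) above and 8 (10.4%, beside 18.1%) below. Mrps12 had the highest log2 fold change, 0.32 ± 0.07 (adjusted p of 0.364, limma), at 16.7 and 16.3 RPKM in WT and 19.9 and 21.9 RPKM in KI. Mrpl52 followed with 0.22 ± 0.09, and Mrps36 (-0.23 ± 0.14) and Mrps24 (-0.18 ± 0.07) were the lowest. The per-sample medians of this list were -0.035 in WT 1, 0.021 in WT 2, -0.028 in KI 1 and 0.042 in KI 2, so that WT 2 was above WT 1 and KI 2 above KI 1, as in the cytosolic ribosomal protein genes.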

How the data were processed

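RNA-seq of hippocampus was analysed for 2 WT and 2 KI samples, grouped by their labels. The authors aligned paired-end reads to mm10 with GSNAP (CASAVA is also named in the submitters' processing notes), kept uniquely and properly placed pairs and deposited RPKM per Ensembl gene in 1 file a sample; genes absent from a file were set to 0. The deposited RPKM carry no between-sample scaling stated in the sources used here. Gene names, positions and transcripts came from GENCODE M21 (GRCm38), and starts from RefSeq.

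Limma 3.58.1 (R 4.3.3, mean-variance trend, no covariates, Benjamini-Hochberg over all tested genes) was run on log2(RPKM + 1), which understates changes of low genes, and was tested on simulated data. Other steps used Python 3.11.15 (pandas 2.3.3, numpy 2.4.6, scipy 1.17.1, biopython 1.88). Depths were derived from the RPKM of 1 read and GENCODE exon lengths and were not used as counts. Shared sequence meant identical 100-base coding stretches in spliced transcripts. Such a stretch is shorter than a read pair, so sharing it does not by itself make a pair ambiguous.

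Members and lists were chosen with earlier results of these data known. Members named were the 8 highest and 8 lowest log2 fold changes, the 6 highest and 6 lowest levels, the paralogs, the stalk genes and the member nearest to Kdm1a, and for other lists the 2 highest and 2 lowest; some genes this rule names are not reported here. Alternatives were the pseudocount (0.1), the filter (none, or 5 RPKM in every sample), 2 scalings, no trend, a replicate block, other thresholds (1.5-fold, adjusted p under 0.05), pseudogenes added, and each sample left out.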

Additional observations from a re-analysis of the deposited data

How the results depend on the processing

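In all 13 limma fits 0 ribosomal protein genes were called, and 0 were called at 1.5-fold, at an adjusted p under 0.05 or with pseudogenes added. Over all genes the count was 0 in every alternative but the fit without the mean-variance trend, which called 20 genes and 0 members. The smallest adjusted p of a member was 0.262 (at least 5 RPKM in every sample) to 0.721 (without KI replicate 1). Deviations of samples with the same replicate number correlated at -0.025 over all genes and -0.12 over the members, and the numbers share only a name in the labels. With the replicate block 0 genes and 0 members were called, and with crossed numbers, added after seeing the data, 0 and 0.

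The median log2 fold change of the members was 0.016 to 0.034 under the other pseudocount, filters and scalings, 0.058 with pseudogenes and 0.05 for sums with sharing rows. Leaving out 1 sample gave -0.00071 (without WT 1) to 0.086 (without WT 2). Members whose groups did not overlap numbered 38, or 83 of members and pseudogenes together. With 1 sample left out, members without overlap numbered 59 to 64, where a lone sample makes overlap rarer. Shares over all genes were not counted for these settings. Of the 59 to 64 members, 31 to 54 were above and 10 to 30 below. The KI minus WT difference of the members' share of all RPKM was 0.0043 percentage points and -0.029 to 0.037 with 1 sample left out.

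Of the 30 named members in the fit, 23 kept the sign of their log2 fold change in every alternative. Many of the 30 were named for the highest or lowest log2 fold changes in these same samples, so the count follows partly from the pick. The replicate blocks and the fit without the trend left every log2 fold change as it was. The count therefore does not measure how stable the signs are. Rpl11 was -0.0022 after quantile normalization and Rps15 -0.017 after median-of-ratios scaling. With 1 sample left out the range was -0.066 to 0.12 for Rpl11, -0.069 to 0.0695 for Rps15, -0.204 to 0.026 for Rpl36al, -0.102 to 0.033 for Rpl4, -0.13 to 0.0598 for Rpl8, -0.12 to 0.0057 for Rplp0 and -0.077 to 0.14 for Rplp1. The depth of 12 to 18 reads limits Rps29, and the 2 samples a group limit all members.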
